A study of Homo sapiens with 24 samples.

Results

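The genes described here are 40 interferon-induced genes, chosen by name as textbook members of the type I interferon response. They include the IFIT, IFITM, OAS, MX and IFI families, the ISG15 system and the factors that transmit the response. All 40 were found by symbol among the 61541 genes of the 48 h table and among the 19836 genes of the 72 h table. DDX58 and RIGI are older and newer names of one gene. The cells were U2932, an established line of diffuse large B-cell lymphoma, for which the labels also give bone marrow as the tissue. The study used nucleic-acid reagents directed at MYC and compared RNA with that of cells given PBS. The title names a gamma peptide nucleic acid, a synthetic DNA-like strand with a peptide-like backbone, directed at MYC. At 48 h there were 4 libraries labelled PNA2, 4 of cells electroporated with MYC siRNA at 500 nM, and 6 of cells given PBS. At 72 h there were 5 libraries labelled PNA2 and 5 of cells given PBS. The labels give the PNA2 dose as 8 mM, call the treated cells MYC knockdown and the PBS cells wild type, and name no control that was electroporated. The siRNA libraries carry cell line entries that count upward from the name U2932, and are taken here as the same line. Nothing states that replicates were separate cultures, so p-values measure only the spread between these libraries, which may be technical. In bulk RNA, fewer expressing cells and less RNA per cell cannot be told apart.

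Interferons are secreted proteins that bind receptors linked to the kinases JAK1 and TYK2. The kinases phosphorylate STAT proteins, among them STAT2, which joins IRF9 in a complex that binds interferon-stimulated response elements in promoters. The induced proteins sense foreign RNA, cut it or block its translation, hold back viral entry or release, and attach the ubiquitin-like protein ISG15 to other proteins. Many of these genes also have a basal level in unstimulated lymphoid cells, and some are driven by IRF1, IRF3 or IRF7 without secreted interferon.

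The promoters of 7 members on which the results turn are shown because letters of the response element recur in many, though not all, promoters of the set. They are RefSeq sequences of build GRCh38.p14, each of 260 bases, from 250 bases before the annotated start to the first 10 bases after it, written 5′ to 3′ on the gene's strand. Capitals mark matches to the core GAAANNGAAA, searched on both strands from 250 bases before to 50 bases after the start, where overlapping matches run together.
IFITM3, chr11:320851-321110, minus strand: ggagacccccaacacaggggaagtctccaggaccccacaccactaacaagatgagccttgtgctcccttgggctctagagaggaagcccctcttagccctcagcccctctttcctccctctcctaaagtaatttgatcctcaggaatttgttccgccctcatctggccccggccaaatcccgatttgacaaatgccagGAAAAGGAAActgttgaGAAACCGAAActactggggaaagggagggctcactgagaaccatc
IFIT5, chr10:89414318-89414577, plus strand: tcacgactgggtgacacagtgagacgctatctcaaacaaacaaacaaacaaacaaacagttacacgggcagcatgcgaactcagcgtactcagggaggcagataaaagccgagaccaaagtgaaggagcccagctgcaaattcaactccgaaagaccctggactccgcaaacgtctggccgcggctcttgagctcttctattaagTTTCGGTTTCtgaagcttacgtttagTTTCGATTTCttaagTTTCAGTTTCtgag
ISG15, chr1:1013247-1013506, plus strand: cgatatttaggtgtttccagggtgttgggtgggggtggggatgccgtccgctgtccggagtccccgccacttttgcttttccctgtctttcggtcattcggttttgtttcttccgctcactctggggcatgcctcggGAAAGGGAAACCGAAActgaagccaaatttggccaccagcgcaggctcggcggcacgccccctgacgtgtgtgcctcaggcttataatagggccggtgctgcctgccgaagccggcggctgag
IFI6, chr1:27672183-27672442, minus strand: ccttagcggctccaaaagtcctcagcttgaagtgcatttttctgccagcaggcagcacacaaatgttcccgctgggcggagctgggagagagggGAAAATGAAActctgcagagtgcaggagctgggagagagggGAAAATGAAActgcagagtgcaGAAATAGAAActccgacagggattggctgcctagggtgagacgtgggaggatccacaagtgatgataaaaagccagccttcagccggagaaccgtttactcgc
OAS3, chr12:112938224-112938483, plus strand: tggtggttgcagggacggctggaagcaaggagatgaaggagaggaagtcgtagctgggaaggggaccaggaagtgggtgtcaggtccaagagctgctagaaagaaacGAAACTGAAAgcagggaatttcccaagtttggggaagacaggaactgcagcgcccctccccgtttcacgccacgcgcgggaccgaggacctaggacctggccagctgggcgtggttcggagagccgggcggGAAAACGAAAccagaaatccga
IFIH1, chr2:162318675-162318934, minus strand: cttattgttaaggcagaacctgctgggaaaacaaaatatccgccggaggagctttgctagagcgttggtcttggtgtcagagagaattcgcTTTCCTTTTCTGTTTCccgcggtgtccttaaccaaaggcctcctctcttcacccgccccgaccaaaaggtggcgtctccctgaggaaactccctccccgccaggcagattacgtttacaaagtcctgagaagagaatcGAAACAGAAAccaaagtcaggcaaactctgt
DTX3L, chr3:122564088-122564347, plus strand: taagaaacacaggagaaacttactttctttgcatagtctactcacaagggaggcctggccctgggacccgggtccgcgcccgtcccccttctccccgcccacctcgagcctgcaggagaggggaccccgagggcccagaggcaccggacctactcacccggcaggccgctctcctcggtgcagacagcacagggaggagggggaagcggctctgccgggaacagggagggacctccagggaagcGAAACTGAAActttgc
IFI6 carried 3 matches, which began 156, 115 and 93 bases before its start, and IFIT5 carried 3, all on the opposite strand. In ISG15 both matches overlapped. The single match of DTX3L, at chr3:122564332-122564341, was also the match of its neighbour PARP9, which is transcribed from the other strand. Of the 32 members with a promoter sequence, 20 (62.5%) held a match, against 4.38% of all 27305 genes with one, and 13 held at least 2. The 8 members without a promoter sequence were IFIT2, IFITM2, IRF7, MX2, OAS2, OASL, TRIM22 and USP18. Counted by sequence, 3.57% of all 35116 promoter sequences of the same length held a match. The core TTCNNNGAA, the letters of a gamma-activated site, was found on either strand in 10 of the 32 members and in 9.38% of all genes, or 7.66% of all promoter sequences. In 4 members matches to both cores overlapped. A match is a description of letters, not evidence of binding.

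The 48 h totals of adjusted read counts were 14.88 to 16.03 M in libraries labelled PNA2, 12.63 to 16.17 M in siRNA libraries and 11.12 to 14.46 M in PBS libraries. At 72 h, 11.25 to 13.69 M reads were recovered in libraries labelled PNA2 and 8.22 to 13.28 M in PBS libraries. The scaled values given for 48 h are the authors' adjusted read counts divided by a library scale, and log2 fold changes are of value + 1. RNA of the target MYC was not lower in every group that the labels call knockdown, and these data hold no protein values. Its scaled values at 48 h were 7181 to 8907 in libraries labelled PNA2, 3588 to 4184 in siRNA libraries and 5453 to 7648 in PBS libraries. MYC therefore fell with siRNA (log2 fold change -0.81, limma adjusted p = 0.000318) and was not lower in the libraries labelled PNA2 (0.24, limma adjusted p = 0.096). There it passed as higher without PNA2 replicate 2 (0.28, limma adjusted p = 0.0403) and in batch B alone, a set of libraries described next, (0.45, limma adjusted p = 0.00826). At 72 h MYC had normalized read counts of 459.9 to 2032 in libraries labelled PNA2 and 826.4 to 2845 in PBS libraries (-0.18, limma adjusted p = 0.794). All B-cell markers listed (7 of 7) were detected in every group, with sums of 26500 to 43700 in libraries labelled PNA2, 42800 to 45100 in siRNA libraries and 35800 to 39300 in PBS libraries at 48 h, and 28100 to 33600 with PNA2 and 23200 to 25200 with PBS at 72 h. The 21 interferon genes themselves summed to at most 6.47 in any 48 h library and at most 2.87 in any 72 h library. Listed T and NK cell markers summed to 15.5 to 72.8 in libraries labelled PNA2, 11.1 to 22.0 in siRNA libraries and 1.09 to 23.1 in PBS libraries at 48 h, nearly all of it CD8A, with 5, 5 and 4 of the 8 genes at 0. Myeloid and plasmacytoid dendritic cell markers summed to 8.27 to 23.1, 10.8 to 16.8 and 7.55 to 14.5 in those groups. At 72 h, T and NK cell markers summed to 27.9 to 51.0 in libraries labelled PNA2 and 8.63 to 33.4 in PBS libraries, and myeloid markers to 17.5 to 30 and 14.4 to 46.9. Markers of erythroid cells summed to at most 7.01, and those of stroma and epithelium, mostly VIM, to 2980 to 4300, 1880 to 1940 and 1850 to 2470 in the 48 h groups and 1460 to 2260 and 1270 to 1680 in the 72 h groups. Of these, the epithelial marker EPCAM had 162 to 251 at 48 h and 80.9 to 135 at 72 h, and COL1A1 reached 141 and 39.3. VIM passed as higher with PNA2 at both times and as lower with siRNA. The part of these cell types in any result was not tested.

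The 48 h libraries carry structure that touches the interferon-induced genes. Tied values show 2 sets of libraries that the authors' adjustment treated separately, called batch A and batch B here. Batch A holds 2 libraries labelled PNA2, all 4 siRNA libraries and 3 PBS libraries, and batch B holds 2 labelled PNA2 and 3 PBS, 2 of which carry no replicate number. Each gene's mean over all libraries was nearly equal in both batches, with a median difference of 2.92% over the members and 3.89% over all genes. The PBS means, in contrast, differed between batches by a median of 23.7% over the 30 members tested and 8.99% over all genes tested. All siRNA libraries are in one batch, so siRNA values are also given with both batches aligned on their PBS libraries. PNA2 replicate 2 lay at -42.8 on the first principal component, where the next lowest library lay at -8.86, and it was the highest of 4 in 15 of 30 members, against 36.5% of all genes. PNA2 replicate 1, also in batch A, was the lowest of 4 in 19 of 30 members, against 24.9% of all genes. PBS replicates 1 and 2, both in batch A, deviated from the other controls together (r = 0.806, across 9114 genes, which are not independent). They were the 2 lowest of 6 controls in 16 of 30 members, against 17.3% of all genes. Results are therefore given with and without PNA2 replicate 2 and PBS replicates 1 and 2, and counts also without PNA2 replicate 1.

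Some members cannot be counted apart from other genes. IFITM1 (chr11:313506-315272), IFITM2 (chr11:307631-315272) and IFITM3 (chr11:319669-327537) lie together, and 32.0%, 34.1% and 17.4% of their 50-base words recur in other genes, chiefly in each other. The annotated exons of IRF9 (chr14:24161053-24166565) are 93.5% covered by another gene on the same strand. IRF9 was at 0 in all 14 libraries at 48 h and at 179.5 to 346 in the 72 h libraries. Of USP18, 23.4% of words recur, among others in its copy USP41. How the counting treated strand is not stated, and 11 members overlap a gene on the opposite strand. The largest shares of exons were 69.9% for XAF1, 23.7% for IFITM3, 18.8% for SAMHD1 and 15.3% for IRF1.

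At 48 h, 30 members passed the filter on low values. IFIT1, OASL, IFI44, IFI44L, XAF1, HERC5, IFI27, USP18, DDX58/RIGI and IRF9 did not, and had scaled values of at most 15.5 in any library. With PNA2, 10 of the 30 rose and 1 fell, where a call is an adjusted p below 0.05 (limma, Benjamini-Hochberg over 14136 genes). Over all genes tested, 8.11% rose and 8.57% fell. The median log2 fold change of the members was 0.35, against -0.00219 over all genes. The largest changes among those called belonged to the viral entry inhibitors IFITM2 and IFITM3, the RNA-binding proteins IFIT2 and IFIT5, and the ADP-ribosylation pair PARP9 and DTX3L. IFIH1, a sensor of double-stranded RNA, fell. With siRNA, 16 of 30 rose and 1 fell, beside 9.30% and 8.13% of all genes, and the median was 0.50 against -0.00071. PNA2 and siRNA share their PBS libraries, so their values stand side by side and their likeness is not a result. Without PNA2 replicate 1, 8 members rose and 1 fell with PNA2 (10.6% and 11.8% of all genes). Without PNA2 replicate 2, 7 members rose and 3 fell with PNA2 (8.58% and 9.29% of all genes), and the median was 0.27. With siRNA, 20 then rose and 2 fell (16.1% and 14.8%), in a fit where all libraries share one estimate of the spread. Without PBS replicate 2, 13 rose and 1 fell with siRNA (4.84% and 3.78%). Without PBS replicates 1 and 2, a choice made after the data were seen, 6 rose and 1 fell with PNA2 (4.44% and 4.94% of all genes), while 3 rose and 1 fell with siRNA (1.54% and 0.923%). With the values as deposited, without rescaling, the median over all genes moved to 0.19 for PNA2 and 0.22 for siRNA. Then 16 members rose and 0 fell with PNA2, beside 14.2% and 1.18% of all genes, and 23 had an unadjusted p below 0.05 (limma). With siRNA, 18 rose and 0 fell, beside 15% and 0.523%, and 23 had an unadjusted p below 0.05 (limma).

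**Figure D1:**
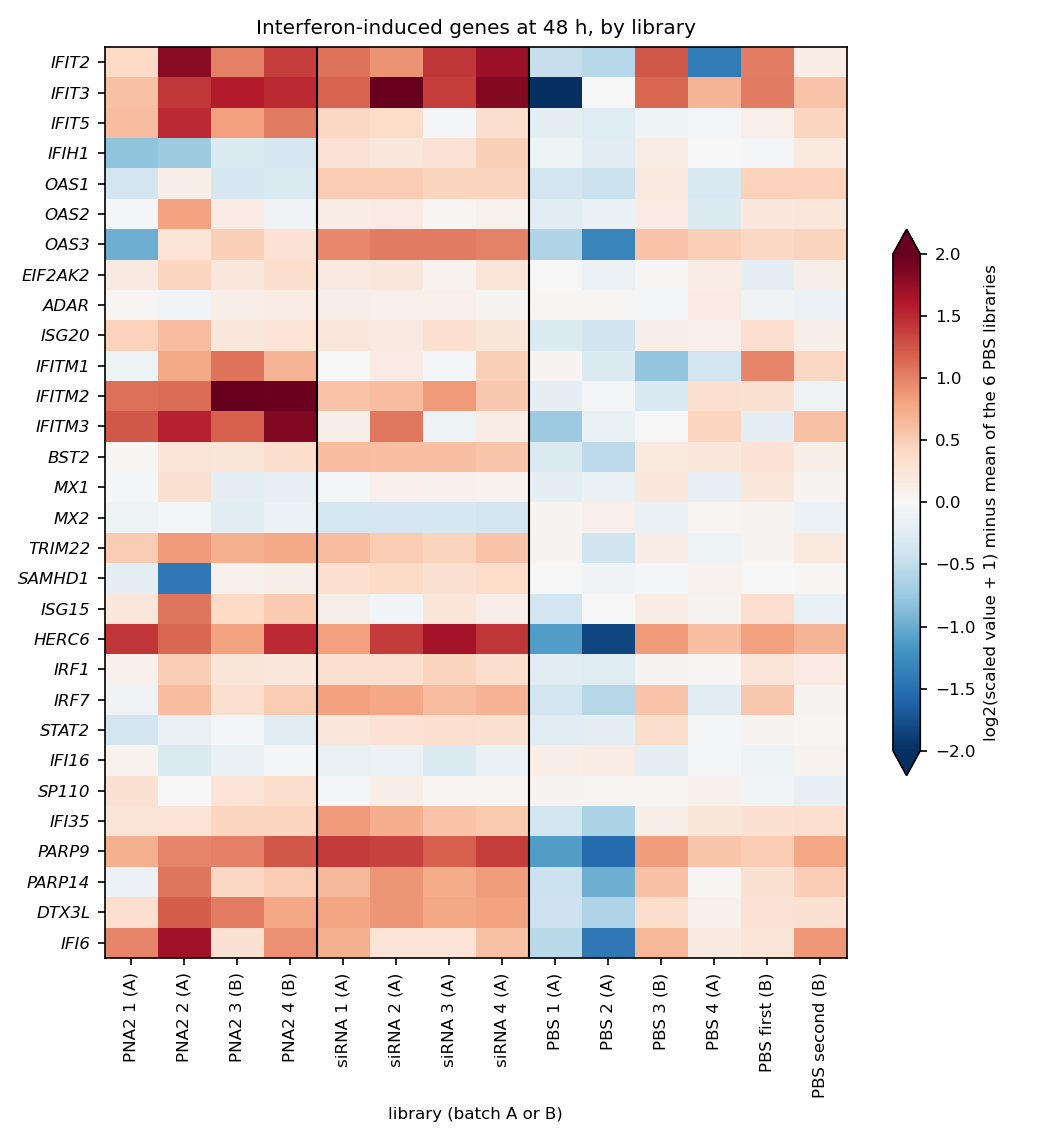
Each row is one of the 30 tested members and each column a library at 48 h, grouped as PNA2, siRNA and PBS, with its batch in brackets. Color gives log2(scaled value + 1) minus the mean of the 6 PBS libraries. IFITM2 and IFITM3 are high in all 4 libraries labelled PNA2, PARP9, OAS3 and IRF7 in all 4 siRNA libraries, and PBS replicates 1 and 2 are low in many rows.

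The RNA-binding IFIT proteins grip viral RNA at its 5′ end. IFIT5 had scaled values of 95.4, 176, 110 and 129 in libraries labelled PNA2, 83.1, 80.7, 61.1 and 79.4 in siRNA libraries, and 52.1 to 84.2 with a median of 60.0 in PBS libraries. All 4 libraries labelled PNA2 lay above all 6 controls, whereas the siRNA libraries overlapped them. IFIT5 rose by a log2 fold change of 0.99 (SE 0.18, limma adjusted p = 0.0023) with PNA2 and had a change of 0.34 (limma adjusted p = 0.251) with siRNA. Without PNA2 replicate 2, the change was 0.77 (limma adjusted p = 0.0023). IFIT2, which binds AU-rich RNA, had 10.9, 30.6, 17.1 and 22.5 in libraries labelled PNA2, 18.1, 15.8, 23.3 and 28.9 in siRNA libraries, and 2.43 to 20.2 with a median of 7.30 in PBS libraries. Both treated groups overlapped the controls. Its log2 fold change was 1.15 (SE 0.38, limma adjusted p = 0.0483) with PNA2 and 1.79 (SE 0.42, limma adjusted p = 0.00972) with siRNA. The PNA2 call held in 6 of 25 alternatives, meaning other scalings, filters, fits or batches and each library left out in turn. It was lost without any one of PNA2 replicate 2 (0.70, limma adjusted p = 0.161), PNA2 replicate 4, siRNA replicates 1 to 4, PBS replicates 1, 2 and 4 or the second unnumbered PBS library, with changes between 0.70 and 1.25. IFIT3, which binds and stabilizes IFIT1, had 15.2, 27.9, 31.1 and 29.3 in libraries labelled PNA2, 23.4, 44.0, 27.3 and 37.8 in siRNA libraries, and 0 to 22.9 with a median of 15.6 in PBS libraries. The siRNA libraries all lay above the controls. The control at 0 was PBS replicate 1, deposited as -1.56 and floored. IFIT3 rose by 2.27 (SE 0.65, limma adjusted p = 0.0257) with siRNA, or 1.46 with the batches aligned, and the call was lost without siRNA replicate 2 (2.13, limma adjusted p = 0.0724) or replicate 4 (2.2, limma adjusted p = 0.0663). With PNA2 the change of IFIT3 was 1.26 (limma adjusted p = 0.149). Without PBS replicates 1 and 2, the changes of IFIT3 were 1.06 with siRNA and 0.51 with PNA2, and neither passed.

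IFIH1 (MDA5, chr2:162267079-162318703) was the one RNA sensor that moved in opposite directions. Its scaled values were 102, 109, 147 and 142 in libraries labelled PNA2, 218, 210, 219 and 248 in siRNA libraries, and 153 to 205 with a median of 176 in PBS libraries. Every library labelled PNA2 lay below, and every siRNA library above, all 6 controls. IFIH1 fell by 0.53 on the log2 scale (SE 0.10, limma adjusted p = 0.00233) with PNA2, and by 0.52 without replicate 2. With siRNA it rose by 0.47 (SE 0.11, limma adjusted p = 0.00783). The PNA2 call held in 24 of 26 alternatives and was lost with the values as deposited (-0.33, limma adjusted p = 0.141) and in batch B alone (-0.41, limma adjusted p = 0.0994). DDX58/RIGI, the related sensor of 5′ triphosphate RNA, was at 5.95 to 9.81 in libraries labelled PNA2, 2.64 to 9.03 in siRNA libraries and 1.43 to 9.60 in PBS libraries, too low to test.

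The OAS enzymes make the second messenger that activates RNase L. OAS3 had 91.2, 219, 253 and 221 in libraries labelled PNA2, 351, 372, 374 and 360 in siRNA libraries, and 71.9 to 269 with a median of 244 in PBS libraries. The 4 siRNA libraries were tightly grouped above all controls, and the PNA2 libraries spanned the range of the controls. OAS3 rose by 1.44 (SE 0.30, limma adjusted p = 0.00483) with siRNA, 1.10 with batches aligned, and had a change of 0.02 (limma adjusted p = 0.973) with PNA2. Its low controls were PBS replicates 1 and 2, at 118.5 and 71.9. Without them its siRNA change was 0.84 and did not pass. OAS1 had 405, 582, 423 and 434 in libraries labelled PNA2, 758, 753, 724 and 723 in siRNA libraries, and 396 to 736 with a median of 514 in PBS libraries. It rose by 0.66 (SE 0.16, limma adjusted p = 0.0126) with siRNA, a call lost without PBS replicate 2 (0.57, limma adjusted p = 0.0555). With PNA2 the change was -0.22 (limma adjusted p = 0.316), and without PNA2 replicate 2, its highest library, OAS1 fell by 0.43 (limma adjusted p = 0.0085). OAS2 passed in neither comparison, with 478 to 869 in libraries labelled PNA2, 512 to 561 in siRNA libraries and 414 to 587 in PBS libraries.

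The remaining RNA-binding effectors were abundant and had small changes. EIF2AK2, the kinase PKR that halts translation, had 917, 1087, 947 and 1040 in libraries labelled PNA2, 920, 949, 849 and 966 in siRNA libraries, and 718 to 899 with a median of 821 in PBS libraries. It rose by 0.30 (SE 0.08, limma adjusted p = 0.0178) with PNA2, every library above every control, and by 0.25 without replicate 2 (limma adjusted p = 0.0313). The call was lost without PNA2 replicate 4 (0.27, limma adjusted p = 0.0568). ISG20, an exonuclease, had 1140, 1268, 954 and 998 in libraries labelled PNA2, 967, 938, 1034 and 977 in siRNA libraries, and 630 to 1042 with a median of 891 in PBS libraries. It rose by 0.39 with PNA2 (SE 0.12, limma adjusted p = 0.0388), overlapping the controls, and held this call in 13 of 26 alternatives. Its change was 0.28 without PNA2 replicate 2 (limma adjusted p = 0.0875), and the call was also lost without PNA2 replicate 1, PBS replicate 1, 2 or 3 or siRNA replicate 1, 2 or 4. ADAR, which edits double-stranded RNA, had 6357 to 7379 in libraries labelled PNA2, 6913 to 7151 in siRNA libraries and 6124 to 7439 in PBS libraries, with changes of 0.06 and 0.08 that passed in neither comparison. Of the 10 tested members in this class, 4 rose and 1 fell with PNA2 (median 0.26), beside 8.11% and 8.57% of all genes, and 5 rose with siRNA (median 0.41), beside 9.30%.

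The IFITM proteins sit in membranes and hinder fusion of viruses. IFITM2 had scaled values of 67.1, 67.7, 125 and 123 in libraries labelled PNA2, 46.1, 47.7, 56.2 and 44.9 in siRNA libraries, and 24.6 to 38.7 with a median of 29.5 in PBS libraries. Both treated groups lay wholly above the controls, the PNA2 group higher in batch B than in batch A. IFITM2 rose by 1.54 (SE 0.20, limma adjusted p = 0.000247) with PNA2, 1.64 without replicate 2, and in all 26 alternatives. With siRNA it rose by 0.80 (SE 0.22, limma adjusted p = 0.0210), a call lost without PBS replicate 1 (0.79, limma adjusted p = 0.0563) or siRNA replicate 3 (0.74, limma adjusted p = 0.0606). IFITM3 was low, with 14.7, 18.3, 14.2 and 23.1 in libraries labelled PNA2, 6.29, 12.9, 5.21 and 6.34 in siRNA libraries, and 3.03 to 8.94 with a median of 5.39 in PBS libraries. The libraries labelled PNA2 did not overlap the other 2 groups. Its log2 fold change was 1.45 (SE 0.32, limma adjusted p = 0.00709) with PNA2 and 1.38 without replicate 2, and 0.42 (limma adjusted p = 0.449) with siRNA. IFITM1 had 11.8, 22.1, 27.9 and 20.9 in libraries labelled PNA2, 12.7, 14.2, 12.4 and 18.04 in siRNA libraries, and 6.93 to 25.8 with a median of 11.7 in PBS libraries. The groups overlapped, and changes of 0.61 and 0.39 did not pass (limma adjusted p = 0.188 and 0.471).

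Other restriction factors split between the treatments. TRIM22, a ubiquitin ligase, had 397, 506, 457 and 471 in libraries labelled PNA2, 428, 395, 379 and 412 in siRNA libraries, and 212 to 320 with a median of 291 in PBS libraries. Both treated groups lay above all controls, and TRIM22 rose by 0.71 (SE 0.10, limma adjusted p = 0.00042) with PNA2, 0.62 without replicate 2, and by 0.62 (SE 0.11, limma adjusted p = 0.00184) with siRNA. BST2 (tetherin), which holds budding virions on the cell, had 640, 760, 746 and 809 in libraries labelled PNA2, 976, 966, 966 and 932 in siRNA libraries, and 439 to 774 with a median of 707 in PBS libraries. It rose by 0.75 (SE 0.12, limma adjusted p = 0.00127) with siRNA, above every control, and had a change of 0.22 (limma adjusted p = 0.191) with PNA2. MX2, a dynamin-like GTPase, fell by 0.41 (SE 0.06, limma adjusted p = 0.000611) with siRNA. Its values were 1558, 1636, 1446 and 1539 in libraries labelled PNA2, 1303, 1318, 1311 and 1285 in siRNA libraries, and 1529 to 1785 with a median of 1718 in PBS libraries, so that the siRNA libraries lay below all controls. This fall did not pass with the values as deposited. Its relative MX1 passed in neither comparison, with 389 to 549 in libraries labelled PNA2, 439 to 478 in siRNA libraries and 391 to 515 in PBS libraries. SAMHD1, which depletes nucleotides, had 1092, 464, 1331 and 1357 in libraries labelled PNA2, 1559, 1633, 1543 and 1613 in siRNA libraries, and 1192 to 1311 in PBS libraries. The low value belonged to PNA2 replicate 2, and the change with PNA2 was -0.35 with it and -0.01 without it (limma adjusted p = 0.216 and 0.946). Of the 8 restriction factors, 3 rose with PNA2 (median 0.41), beside 8.11% of all genes, and 3 rose and 1 fell with siRNA (median 0.47), beside 9.30% and 8.13%.

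ISG15 (chr1:1001138-1014540) is a ubiquitin-like protein, and HERC6 belongs to the ligase family that attaches it. ISG15 had 94.3, 170, 106 and 117 in libraries labelled PNA2, 87.7, 77.9, 95.4 and 88.4 in siRNA libraries, and 61.8 to 101.3 with a median of 82.4 in PBS libraries. It rose by 0.55 (SE 0.17, limma adjusted p = 0.0374) with PNA2, although replicate 1 overlapped the controls, and its change of 0.34 without replicate 2 did not pass (limma adjusted p = 0.119). The call held in 13 of 26 alternatives and was also lost without PNA2 replicate 4, siRNA replicate 1 or 4, PBS replicate 1 or 2 or the second unnumbered PBS library, with changes of 0.47 to 0.57. With siRNA the change of ISG15 was 0.14 (limma adjusted p = 0.665). HERC6 had 12.6 to 21.1 in libraries labelled PNA2, 12.8 to 23.7 in siRNA libraries and 1.20 to 13.0 in PBS libraries. Its change was 1.22 (limma adjusted p = 0.0638) with PNA2 and 1.77 (SE 0.48, limma adjusted p = 0.0198) with siRNA. The siRNA call was lost without siRNA replicate 2, 3 or 4, or PBS replicate 1 or 2, with changes of 1.27 to 1.75.

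PARP9 and DTX3L form a complex that ADP-ribosylates ubiquitin, and PARP14 is a neighbouring enzyme of the same family. PARP9 had 302, 363, 368 and 434 in libraries labelled PNA2, 483, 471, 421 and 479 in siRNA libraries, and 62.1 to 330 with a median of 265 in PBS libraries. PBS replicates 1 and 2 were the low controls, at 83.7 and 62.1, and the siRNA libraries lay above all 6. PARP9 rose by 0.99 (SE 0.31, limma adjusted p = 0.0388) with PNA2 and by 1.81 (SE 0.34, limma adjusted p = 0.00286) with siRNA. Without PNA2 replicate 2 the PNA2 change was 0.80 (limma adjusted p = 0.0728), and the call held in 12 of 26 alternatives, being lost also without PNA2 replicate 1 or 4, PBS replicate 1 or 2, the first unnumbered PBS library or any siRNA library. Without PBS replicates 1 and 2 together, PARP9 had smaller changes that passed, 0.37 with PNA2 (limma adjusted p = 0.042) and 0.83 with siRNA (limma adjusted p = 0.00654). DTX3L (chr3:122564238-122575203) had 619, 1127, 988 and 838 in libraries labelled PNA2, 846, 899, 831 and 857 in siRNA libraries, and 319 to 620 with a median of 557 in PBS libraries. One PNA2 library, replicate 1, fell within the controls, and the siRNA libraries lay above them. DTX3L rose by 0.84 (SE 0.16, limma adjusted p = 0.00285) with PNA2, 0.61 without replicate 2, and by 1.03 (SE 0.17, limma adjusted p = 0.00155) with siRNA. PARP14 had 462, 1057, 668 and 717 in libraries labelled PNA2, 788, 924, 843 and 897 in siRNA libraries, and 254 to 757 with a median of 566 in PBS libraries. It rose by 1.05 (SE 0.25, limma adjusted p = 0.0106) with siRNA and had a change of 0.47 (limma adjusted p = 0.165) with PNA2, or 0.13 without replicate 2.

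Of the 6 tested transcription factors and DNA sensors, 4 rose with siRNA (median 0.42), beside 9.30% of all genes. With PNA2, 0 passed, beside 8.11% higher and 8.57% lower, and 4 had an unadjusted p below 0.05 in limma (median 0.24). IRF7, which amplifies interferon production, had 111, 181, 148 and 168 in libraries labelled PNA2, 208, 202, 181 and 192 in siRNA libraries, and 78.5 to 175 with a median of 111 in PBS libraries. All siRNA libraries were above all controls, and IRF7 rose by 0.99 (SE 0.18, limma adjusted p = 0.00245), against 0.35 (limma adjusted p = 0.157) with PNA2. STAT2, a subunit of the complex with IRF9, had 1022, 1207, 1309 and 1137 in libraries labelled PNA2, 1556, 1630, 1673 and 1639 in siRNA libraries, and 1155 to 1699 with a median of 1332 in PBS libraries. It rose by 0.40 (SE 0.09, limma adjusted p = 0.00625) with siRNA, and its PNA2 change of -0.19 (limma adjusted p = 0.098) was -0.26 (limma adjusted p = 0.0195) without replicate 2. IFI35, which joins the factor NMI, had 133, 133, 149 and 150 in libraries labelled PNA2, 200, 183, 165 and 160 in siRNA libraries, and 71.2 to 139 with a median of 125 in PBS libraries. It rose by 0.85 (SE 0.17, limma adjusted p = 0.00336) with siRNA, every library above the controls, and had a change of 0.35 with PNA2 (limma adjusted p = 0.118). IRF1, a primary response factor, rose by 0.44 (SE 0.11, limma adjusted p = 0.0118) with siRNA, a call lost without PBS replicate 2 (0.37, limma adjusted p = 0.0539). The DNA sensor IFI16 and the nuclear body protein SP110 passed in neither comparison, with changes of -0.09 and 0.23 with PNA2 and -0.21 and 0.04 with siRNA. SP110 rose by 0.32 (limma adjusted p = 0.00163) without PNA2 replicate 2. IFI6, a mitochondrial survival protein, had 57.5, 93.5, 35.5 and 54.5 in libraries labelled PNA2, 34.6 to 47.4 in siRNA libraries and 9.96 to 53.3 with a median of 33.4 in PBS libraries, with changes of 0.97 and 0.67 that did not pass (limma adjusted p = 0.0792 and 0.270).

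**Figure D2:**
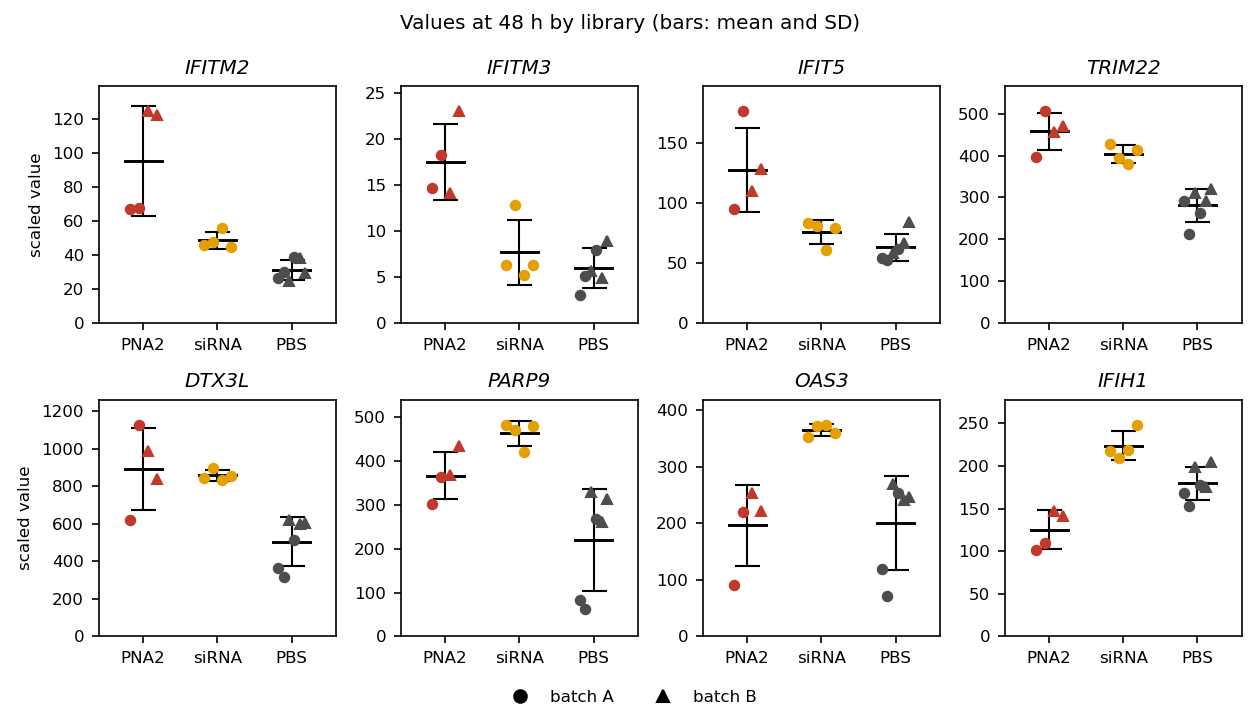
Scaled values at 48 h are shown for 8 members, with PNA2, siRNA and PBS from left to right, a point per library, circles for batch A and triangles for batch B, and bars for mean and SD. IFITM2, IFITM3 and IFIT5 are highest with PNA2, PARP9 and OAS3 with siRNA, and IFIH1 lies below the controls with PNA2 and above them with siRNA.

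With groups that do not overlap as the criterion, 5 of the 30 members lay above all controls with PNA2 (EIF2AK2, TRIM22, IFITM3, IFIT5 and IFITM2), beside 5.24% of all genes, and IFIH1 lay below, beside 4.99%. With siRNA, 13 lay above, beside 8.72% of all genes, and MX2 below, beside 6.89%. Within batch A alone, 10 members rose and 1 fell with PNA2 (6.43% and 7.52% of all genes). Within batch B alone, 5 rose (TRIM22, SP110, IFIT5, DTX3L and IFITM2) and OAS1 fell (5.86% and 7.33%). For siRNA, batch A alone gave 16 risen and 1 fallen (9.04% and 8.45%), and alignment of the batches on their PBS libraries gave 17 and 2 (12.3% and 13.3%). The 3 members that rose with siRNA without PBS replicates 1 and 2 were BST2 (0.46), TRIM22 (0.54) and PARP9 (0.83), with MX2 the one that fell (-0.39). The other members called with siRNA did not pass in that fit. Among them were IFIT2 (1.78), IFIT3 (1.06), IFITM2 (0.84), OAS3 (0.84), IRF7 (0.75), DTX3L (0.68) and HERC6 (0.59). The rest were PARP14 (0.56), IFI35 (0.49), IFIH1 (0.47), OAS1 (0.42), STAT2 (0.30) and IRF1 (0.25). That fit keeps a single PBS library in the batch of the siRNA libraries, which is assumed to vary like the other groups. The changes of TRIM22, IFITM2, IFIT5 and DTX3L with PNA2 passed in all 26 alternatives. That of IFITM3 passed in the 23 where it met the filter, which it did mainly through its libraries labelled PNA2. It could not be tested within either batch alone or with the higher filter. Its passing in those 23, and its place among the members without overlap, are therefore not separate from the filter. Of the 15 tested members with a response element core in their RefSeq promoter sequence, 7 rose and 1 fell with PNA2 (median 0.55), beside 8.11% and 8.57% of all genes. Of the 9 with a promoter sequence but no core, 0 passed and 5 had an unadjusted p below 0.05 (limma), with a median of 0.06. With siRNA, 7 of the 15 (median 0.47) and 5 of the 9 (median 0.44) rose, beside 9.30% of all genes. IFIT2, IFITM2, IRF7, MX2, OAS2 and TRIM22 had no promoter sequence and stand in neither set. Of these, IFIT2, IFITM2 and TRIM22 rose with PNA2. With siRNA, IFIT2, IFITM2, IRF7 and TRIM22 rose and MX2 fell. Members with and without the core were not tested against each other.

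**Figure D3:**
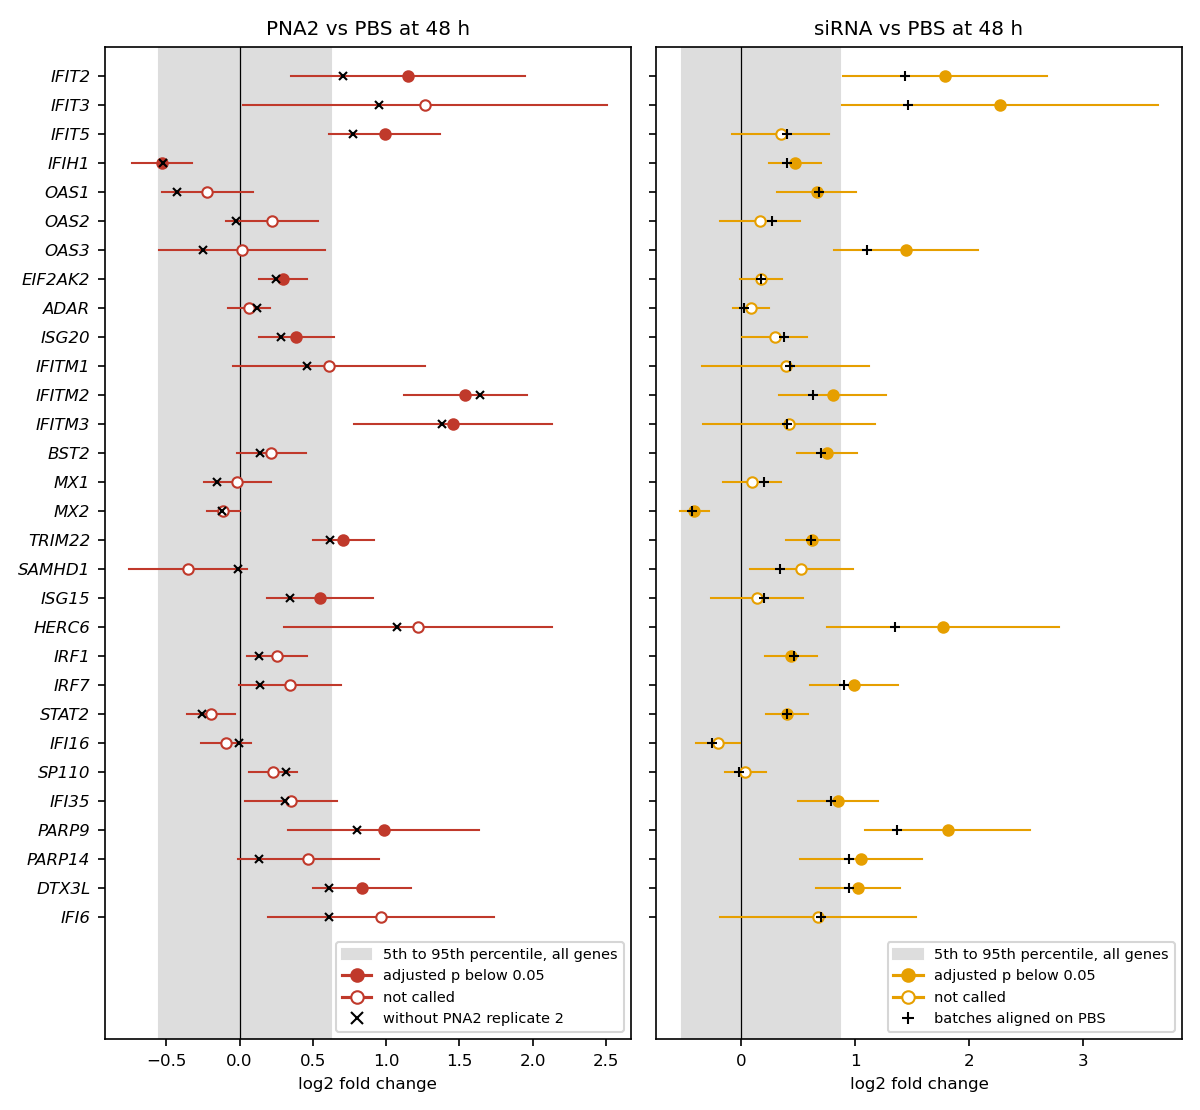
Points give log2 fold changes of the 30 members at 48 h with 95% intervals, PNA2 against PBS on the left and siRNA against PBS on the right. Filled points passed (adjusted p below 0.05), crosses mark PNA2 values without replicate 2, plus signs mark siRNA values with batches aligned on PBS, and the grey band spans the 5th to 95th percentile of all genes.

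Set directly against siRNA at 48 h, the libraries labelled PNA2 had higher IFITM2, IFIT5 and MX2, and lower OAS1, OAS3, IFIH1, SAMHD1, BST2, STAT2 and IRF7. These 3 higher and 7 lower members of 30 stand beside 11.5% and 12.4% of all genes, and the median was -0.15 against -0.01. IFIH1 differed by -1.003 (SE 0.12, limma adjusted p = 3.52e-05), OAS3 by -1.42 (SE 0.32, limma adjusted p = 0.00475), OAS1 by -0.88 (SE 0.18, limma adjusted p = 0.00217) and STAT2 by -0.60 (SE 0.09, limma adjusted p = 0.000403). BST2 differed by -0.53 (SE 0.13, limma adjusted p = 0.0088) and MX2 by 0.30 (SE 0.06, limma adjusted p = 0.00343). SAMHD1 differed by -0.88 (limma adjusted p = 0.0111) with PNA2 replicate 2 and by -0.40 (limma adjusted p = 0.000931) without it. IRF7, at -0.64 (SE 0.20, limma adjusted p = 0.0258), lost its call without PNA2 replicate 1 (-0.55, limma adjusted p = 0.0818) or siRNA replicate 1 or 2. IFITM2, at 0.74 (SE 0.24, limma adjusted p = 0.0328), lost its call without PNA2 replicate 3 or 4 or siRNA replicate 1, 2 or 4, with differences of 0.68 to 0.73. IFIT5, at 0.65 (SE 0.21, limma adjusted p = 0.0389), was at 0.34 without PNA2 replicate 2 (limma adjusted p = 0.209), and also lost its call without PNA2 replicate 4, any siRNA library or PBS replicate 3. IFITM3, which passed the filter mainly through its libraries labelled PNA2, differed by 1.03 without a call (limma adjusted p = 0.0607), although its groups did not overlap. Without PNA2 replicate 2, 4 members were higher and 15 lower, beside 13.5% and 14.6% of all genes. The groups did not overlap for 4 members above (13.6% of all genes) and 7 below (14.2%).

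The PNA2 effect differed between batches in 3 of 30 members (limma interaction term), all larger in batch A, beside 2.57% of all genes in either direction and 1.36% in that one. OAS1 had a change of 0.24 in batch A and -0.68 in batch B, a difference of 0.92 (limma adjusted p = 0.0214). ISG20 had 0.73 in batch A and 0.05 in batch B, a difference of 0.68 (limma adjusted p = 0.0493). MX1 had 0.30 in batch A and -0.33 in batch B, a difference of 0.63 (limma adjusted p = 0.0366). The count was 0 without PBS replicates 1 and 2 and 0 without rescaling, with 9 and 10 members at an unadjusted p below 0.05 (limma). Without those controls the differences were 0.86 for OAS1 (limma adjusted p = 0.140), 0.63 for MX1 (limma adjusted p = 0.159) and 0.39 for ISG20 (limma adjusted p = 0.273). When PNA2 replicate 2 was left out, OAS1 passed (0.66, limma adjusted p = 0.0186), and MX1 (0.47, limma adjusted p = 0.0681) and ISG20 (0.60, limma adjusted p = 0.0645) did not. The count was 0 to 16 when one library at a time was left out. Without PNA2 replicate 1, 12 members had a larger effect in batch A and 4 (SAMHD1, SP110, ADAR and IFI16) a smaller one, beside 12.9% and 16.7% of all genes. Without PBS replicate 4, 6 were larger in batch A, beside 2.40% of all genes. It was 1 (OAS1) without PNA2 replicate 2, PBS replicate 3, the first unnumbered PBS library or any siRNA library. It was 0 without PNA2 replicate 3 or 4, PBS replicate 1 or 2 or the second unnumbered PBS library, where 8 to 10 members had an unadjusted p below 0.05 (limma) and 0.121% to 0.49% of all genes were larger in batch A. Batch A holds PNA2 replicates 1 and 2 and PBS replicates 1 and 2, whose part in these differences cannot be told apart from the batch.

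At 72 h, 33 members passed the filter. With PNA2, 6 rose (IFI6, IFITM1, ISG15, ISG20, BST2 and OAS2) and STAT2 fell, beside 12.1% and 11.7% of all 11985 genes tested (limma, Benjamini-Hochberg). The median change of the members was 0.21, against -0.01 over all genes. IFI6 had normalized read counts of 68.1, 58.4, 95.6, 53.9 and 36.8 in libraries labelled PNA2, and 21.1, 26.0, 27.8, 24.9 and 35.1 in PBS libraries. The groups did not overlap, by a small margin, and IFI6 rose by 1.13 (SE 0.25, limma adjusted p = 0.00815). IFITM1 had 104, 86.0, 138, 110 and 102 in libraries labelled PNA2, and 63.2, 53.4, 50.5, 38.4 and 60.0 in PBS libraries. Every treated library exceeded every control, and IFITM1 rose by 1.01 (SE 0.17, limma adjusted p = 0.00261). ISG15 had 150, 157, 258, 143 and 114 in libraries labelled PNA2, and 58.4, 83.6, 90.1, 83.4 and 90.8 in PBS libraries. Its groups did not overlap either, and it rose by 0.97 (SE 0.21, limma adjusted p = 0.00696).

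BST2 had 633, 670, 801, 535 and 504 normalized reads in libraries labelled PNA2, and 464, 389, 485, 431 and 449 in PBS libraries, again without overlap, and rose by 0.49 (SE 0.12, limma adjusted p = 0.0155). ISG20 had 565, 505, 708, 385 and 472 in libraries labelled PNA2, and 323, 317, 429, 375 and 311 in PBS libraries. The lowest treated library fell within the controls, and ISG20 rose by 0.57 (SE 0.15, limma adjusted p = 0.0207). OAS2 had 287, 236, 300.2, 320.3 and 296 in libraries labelled PNA2, and 251, 189, 233, 254 and 175 in PBS libraries. It rose by 0.39 (SE 0.13, limma adjusted p = 0.0475), but only in 8 of 18 alternatives, and its call was lost without PNA2 replicate 1, 3, 4 or 5 or PBS replicate 2, 3 or 5 (0.31 to 0.42). STAT2 had 866, 733, 777, 804 and 967 in libraries labelled PNA2, and 1161, 1046, 1202, 1177 and 1216 in PBS libraries. All treated libraries lay below all controls, and STAT2 fell by 0.49 on the log2 scale (SE 0.08, limma adjusted p = 0.00275). Without overlap, 4 members lay above the controls (IFI6, BST2, IFITM1 and ISG15), beside 10.0% of all genes, and STAT2 below, beside 9.18%. Except for OAS2, every call at 72 h held in all alternatives run, 17 for IFI6 and 18 for the others.

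**Figure D4:**
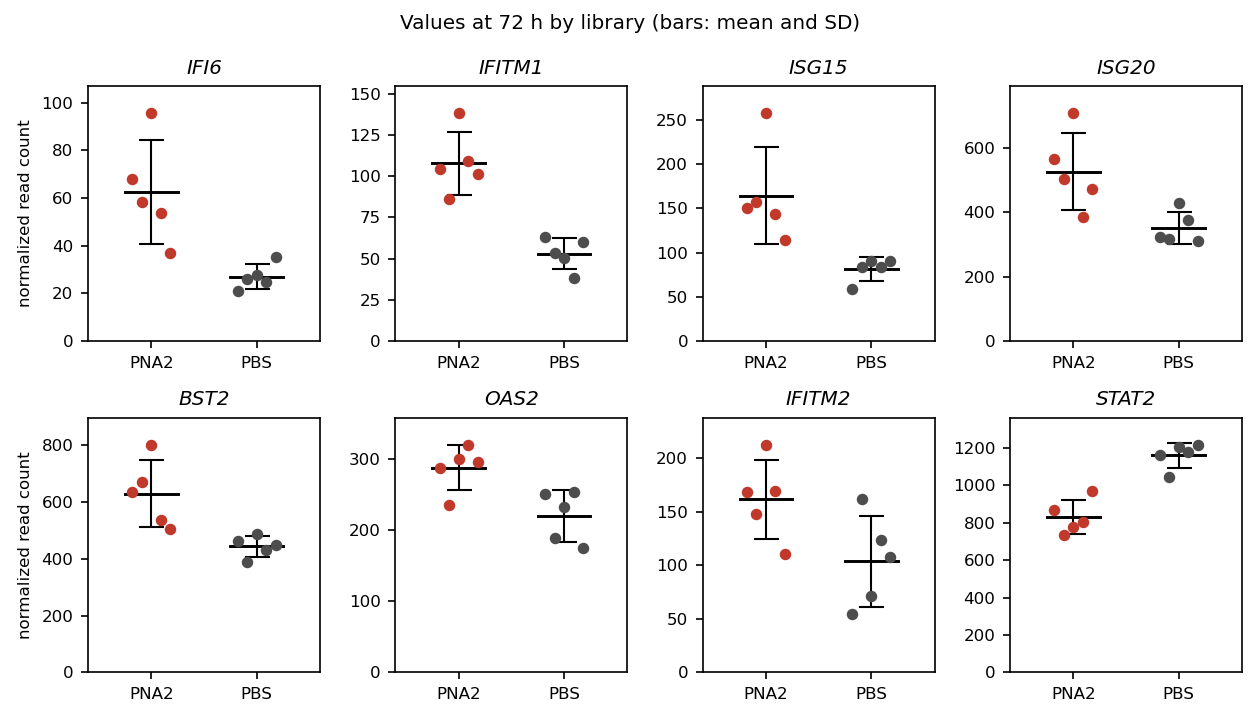
Normalized read counts at 72 h are shown for 8 members, PNA2 left and PBS right, a point per library and bars for mean and SD. IFI6, IFITM1, ISG15 and BST2 do not overlap upward, STAT2 does not overlap downward, and IFITM2, which did not pass, spans 110 to 212 with PNA2 and 54.6 to 162 with PBS.

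Most members that passed at 48 h did not pass at 72 h. IFITM2 had 168, 148, 212, 169 and 110 in libraries labelled PNA2, and 54.6, 162, 71.6, 124 and 108 in PBS libraries. The groups overlapped, and its change of 0.70 did not pass (limma adjusted p = 0.0842). IFITM3 was at 4.498 to 8.656 in libraries labelled PNA2 and 1.69 to 9.59 in PBS libraries, too low to test. IFIT5 had 85.1, 65.9, 73.1, 93.3 and 79.7 in libraries labelled PNA2, and 80.5, 43.9, 75.8, 59.4 and 59.1 in PBS libraries (change 0.33, limma adjusted p = 0.200). IFIT3 had 19.03, 23.4, 25.9, 26.9 and 27.1 in libraries labelled PNA2, and 19.2, 15.1, 13.5, 14.4 and 15.4 in PBS libraries (0.62, limma adjusted p = 0.0637). IFIT2 overlapped fully, with 5.62 to 35.1 in libraries labelled PNA2 and 10.96 to 35.4 in PBS libraries. TRIM22 averaged 236 ± 12.03 in libraries labelled PNA2 and 248 ± 20.1 in PBS libraries (SD, n = 5 each), a change of -0.07 (limma adjusted p = 0.605). DTX3L and PARP9 had changes of 0.21 each (limma adjusted p = 0.139 and 0.150), and IFIH1 one of -0.22 (limma adjusted p = 0.271). IRF9, whose counts are uncertain, averaged 212 ± 29.2 in libraries labelled PNA2 and 284 ± 53.3 in PBS libraries, a change of -0.41 that did not pass (limma adjusted p = 0.0524). It passed as lower in limma with TMM scaling, with the higher filter or without PNA2 replicate 3, and with edgeR and DESeq2 on recovered reads. HERC6 (1.48), USP18 (0.77), the protease that removes ISG15, and IFI27 (-1.12) had wide errors and did not pass. The other 14 tested members had changes between -0.33 and 0.36. EIF2AK2, one of these 14, rose with PNA2 at 48 h, but had 582, 604.5, 440, 774 and 685 in libraries labelled PNA2 at 72 h. Its PBS libraries had 676 to 808. It did not pass at 72 h with all libraries, and passed as lower without PNA2 replicate 4. Per kilobase of exon, IFI16 and ADAR had the highest levels of the set at 72 h, at 923 and 683 normalized reads with PNA2 and 1014 and 679 with PBS, followed by BST2 at 617 with PNA2 and 435 with PBS. IFI44 and IFI44L were at 0 in all 10 libraries.

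ISG15 and ISG20 were the members that rose with PNA2 at both times, of the 29 tested at both, and 0 fell at both. Of 11341 genes tested at both times, 3.14% rose and 2.98% fell at both. When PNA2 replicate 2 was left out at 48 h, neither member passed there, 0 rose at both times and 1 (STAT2) fell, beside 3.71% and 3.13%. The tables were normalized separately, so their changes were not tested against each other. ISG15 changed by 0.55 at 48 h and 0.97 at 72 h, ISG20 by 0.39 and 0.57. At 72 h, 5 of the 15 members with a response element core in the promoter sequence rose (median 0.29), beside 12.1% of all genes. Of the 11 with a promoter sequence but no core, 0 rose and 1 fell, beside 12.1% and 11.7%. In that set, 2 had an unadjusted p below 0.05 (limma), and the median was 0.01. OAS2, which rose, had no promoter sequence and stands in neither set. These sets were not tested against each other either.

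**Figure D5:**
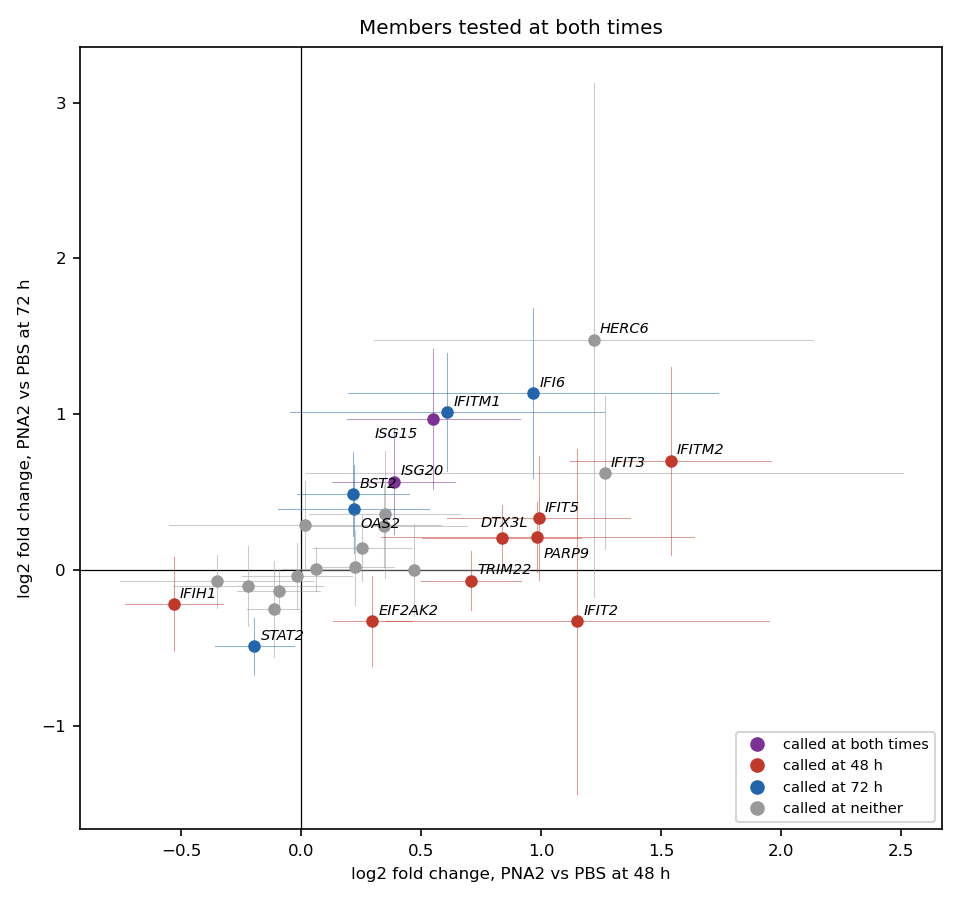
Each point is one of the 29 members tested at both times, with its log2 fold change for PNA2 against PBS at 48 h on the horizontal and at 72 h on the vertical axis, and lines for 95% intervals. ISG15 and ISG20 (purple) passed at both times, while IFITM2, IFIT5, TRIM22, PARP9 and DTX3L (red) passed at 48 h alone and IFI6, IFITM1 and BST2 (blue) at 72 h alone.

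Other genes of the interferon pathway were taken from lists of the same kind, and their counts are read beside the shares of all genes given above for each comparison. None of the 21 interferon genes reached the filter at either time. Of 11 receptor, kinase and STAT genes, 4 fell and none rose with PNA2 at 48 h (median -0.08), among them TYK2, a receptor-bound kinase, by 0.42 (limma adjusted p = 0.000367), and IFNAR2, a receptor chain, by 0.60 (limma adjusted p = 0.00415). The other 2 were IL10RB (-0.79) and IFNLR1 (-0.17). All 4 passed when PNA2 replicate 2 was left out, and JAK1 then rose (0.24, limma adjusted p = 0.0184). IL10RB (limma adjusted p = 0.0752) and IFNLR1 (limma adjusted p = 0.101) did not without PBS replicates 1 and 2. At 72 h, 3 of the 11 fell and none rose (median -0.02), again TYK2 by 0.58 (limma adjusted p = 0.00045) and IFNAR2 by 0.54 (limma adjusted p = 0.0208), with IFNAR1 by 0.39 (limma adjusted p = 0.0485). With siRNA, 4 of the 11 rose and none fell (median 0.18), among them STAT3 (0.91, limma adjusted p = 9.24e-05), JAK1 (0.73) and IFNAR2 (0.65). Without PBS replicates 1 and 2, STAT3 (0.78) and JAK1 (0.66) passed and IFNAR2 (0.65, limma adjusted p = 0.0707) did not. Against siRNA, the libraries labelled PNA2 had 7 of these genes lower and IFNGR1 higher.

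Among nucleic acid sensors and their adaptors, IRF5 rose (0.47) and IRF3 fell (-0.29) with PNA2 at 48 h, of 14 tested (median -0.17). When PNA2 replicate 2 was left out, 3 rose, TRIM25 (0.31, limma adjusted p = 0.00700) and MYD88 (0.27, limma adjusted p = 0.00358) among them. At 72 h, of 16 tested (median -0.09), TLR9, a sensor of CpG DNA, rose by 0.41, while ZBP1, a Z-DNA sensor, fell by 0.93 and MB21D1 (cGAS) by 0.38. With siRNA, CGAS (0.49) and TRIM25 (0.44) rose, of 14 tested (median 0.09). Of 9 negative regulators, NLRC5 fell with PNA2 at 48 h (-0.35) and 72 h (-0.30), and at 72 h SOCS1 (0.53), PTPN6 (0.49) and IRF2 (0.32) rose. The NLRC5 call at 48 h was lost without PNA2 replicate 3 or 4 or any siRNA library. It was also lost there without PBS replicate 3 or 4 or either unnumbered PBS library. Its 72 h call was lost without PNA2 replicate 2, 4 or 5 or any PBS library. At 48 h, PTPN6 (1.03, limma adjusted p = 3.06e-06) and IRF2 (0.21, limma adjusted p = 0.0442) rose without PNA2 replicate 2. With siRNA 3 of the 9 rose, SOCS3, SOCS1 (1.92) and CYLD (0.66). SOCS3, a feedback inhibitor of JAK kinases, averaged 189 ± 29.9 in siRNA libraries and 50.3 ± 51.6 in PBS libraries (SD, n = 4 and 6), a spread as large as the mean in the controls. Of these siRNA changes, SOCS3 and CYLD (0.58) passed without PBS replicates 1 and 2.

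Of 21 further interferon-induced genes tested, 5 rose and none fell with PNA2 at 48 h (median 0.30). They were the ligase RNF213 (0.76, limma adjusted p = 0.000444), LY6E (0.57), the ISG15 conjugating enzyme UBE2L6 (0.48, limma adjusted p = 0.000198), SHISA5 (0.35) and SP100 (0.30), and all 5 kept their calls without PNA2 replicate 2, with changes of 0.28 to 0.66. With siRNA, 7 rose and LY6E fell (-0.59), with a median of 0.30, and the largest changes among those that passed were those of EPSTI1 (2.83), LGALS3BP (1.60) and PLSCR1 (0.98). Without PBS replicates 1 and 2, EPSTI1 (1.78), LGALS3BP (1.10) and RNF213 (0.57) passed, and PLSCR1 (0.51, limma adjusted p = 0.0966) did not. When PNA2 replicate 2 was left out, 13 rose, GBP1 among them (1.95, limma adjusted p = 0.00375). At 72 h, 6 rose with PNA2 and SAMD9 fell (-0.52), with a median of 0.25, among them UBE2L6 (0.60, limma adjusted p = 0.00237), SHISA5 (0.55) and LGALS3BP (0.52). Of the antigen presentation genes, B2M rose (0.39) and NLRC5 fell with PNA2 at 48 h, of 14 tested (median 0.08), and 5 rose with siRNA (median 0.28), among them HLA-F (0.80) and HLA-E (0.71), of which HLA-B (0.42) alone passed without PBS replicates 1 and 2. In the fit without PNA2 replicate 2, 6 rose and 2 fell with PNA2 at 48 h, PSMB8 (0.38) and PSMB9 (0.39) among the 6, and 8 rose with siRNA. At 72 h, 10 of 15 rose and NLRC5 fell with PNA2 (median 0.28), among them the immunoproteasome subunits PSMB8 (0.60, limma adjusted p = 0.00246) and PSMB9 (0.54), and the peptide transporter TAP1 (0.46, limma adjusted p = 0.00136). With one library at a time left out at 72 h, 7 to 10 of these rose and 0 or 1 fell. In the same fits, 3 to 7 of the further interferon-induced genes and 3 of the negative regulators rose, 1 to 4 of the receptor, kinase and STAT genes fell, and 0 to 3 of the nucleic acid sensing genes fell. Over all genes, 8.94% to 14% rose and 8.35% to 13.9% fell in these fits.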

How the data were processed

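RNA of U2932 cells was sequenced from TruSeq libraries on a NextSeq 500, per the labels' protocols. Per the submitters' processing notes, HTSeq 0.11.0, HISAT2 2.2.1, DESeq2, SAMtools 1.7 and Trimmomatic were used with build GRCh38; their settings are not given in the sources used here. The 72 h values are a normalized signal the authors deposited, read counts divided by size factors of 0.730 to 1.187 (multiplying back gave whole numbers within 0.01 for 100% of values). The 48 h values the authors deposited are read counts adjusted per gene and batch in a way not stated. They fall below 0 in 5099 genes (lowest -223.8), and 12.3% to 27.3% of low values in 7978 genes tie within a batch and 0% between batches.

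At 48 h, values were floored at 0 and divided by a TMM library scale (edgeR 4.0.16). Fold changes are on the log2(value + 1) scale. At low values this can make a change smaller, or larger where a control was floored at 0. The two-sided limma 3.58.1 test (R 4.3.3, mean-variance trend, Benjamini-Hochberg over all genes tested) used group and batch over 14 libraries at 48 h and group over 10 at 72 h, for genes at 10 or more in 4 (48 h) or 5 (72 h) libraries. edgeR and DESeq2 1.42.0 on recovered 72 h reads, other scalings, filters and pseudocounts, and left-out libraries were alternatives. The fits were tested on simulated data. Members and lists were chosen with earlier results of these data known. By the rule for names, called members are named, and the 8 largest changes with a mean of 100 or more, the IFIT and IFITM families and members called more than once are given by library; other genes named in full were chosen after their values were seen. Promoters are RefSeq sequences; exon overlaps and lengths come from GENCODE 29, which holds all 40 members. Results for some genes are not reported here.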

Additional observations from a re-analysis of the deposited data

Results flagged for a closer look

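Among 156 groups of 4 to 6 libraries, 6 (3.85%) held one library far from the rest, where chance gives about 1 in 20. At 48 h these were IFIT5 in siRNA replicate 3 (61.05, lowest of 4), IFITM3 in siRNA replicate 2 (12.86, highest of 4), OAS1 in PNA2 replicate 2 (581.7, highest of 4) and IFI16 in siRNA replicate 3 (3429, lowest of 4). At 72 h they were ISG15 (58.43, lowest of 5) and DTX3L (580.5, highest of 5), both in PBS replicate 1.

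The PNA2 effect at 48 h differed between batches A and B, by an interaction term in limma with Benjamini-Hochberg adjustment, for OAS1 (difference of 0.916 on the log2 scale, limma adjusted p = 0.0214), ISG20 (0.678, limma adjusted p = 0.0493) and MX1 (0.629, limma adjusted p = 0.0366).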

How the results depend on the processing

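No member called with all libraries kept and the settings of the report changed sign under an alternative. The PNA2 changes of OAS1 (-0.68 to 0.24) and STAT2 (-0.27 to 0.0044) at 48 h, called only without PNA2 replicate 2 or, for OAS1, also in batch B alone, did, and MYC at 72 h (-0.18) reversed to 0.24 without PNA2 replicate 3 and 0.02 without PBS replicate 4, within -0.43 to 0.24 with one library left out. For PNA2 against PBS at 48 h, 11 members were called, and 6 with only the 2 groups compared, 7 with the replicate block, 6 in batch B alone, 7 without PBS replicates 1 and 2, and 7 to 13 when one library at a time was left out. For siRNA the count was 17, 8 without a batch term, 4 without PBS replicates 1 and 2, and 14 to 22 with one library left out. For PNA2 against siRNA it was 10, 6 without rescaling, 5 with the replicate block and 7 to 19 with one library left out. For the batch difference it was 3, 0 without PBS replicates 1 and 2, 0 without rescaling, and 0 to 16 with one library left out (limma; 9 and 10 members at an unadjusted p below 0.05 in the first 2 of these settings). At 72 h it was 7, with 7 under the replicate block and 6 to 7 with one library left out. Same-numbered libraries did not vary together (correlations of -0.578 to 0.203), so the replicate block was no better matched to the design. Over all genes, calls for PNA2 at 48 h numbered 2358, and 1040 with only the 2 groups, 840 with the block and 1320 without PBS replicates 1 and 2. For siRNA they numbered 2464, and 1201 without a batch term, 4588 with only the 2 groups, 977 with the block, 347 without PBS replicates 1 and 2, 1217 without PBS replicate 2 and 4333 without PNA2 replicate 2. For PNA2 against siRNA they numbered 3376, and 1785 without rescaling and 1813 with the block. For the batch difference they numbered 364, 63 and 84 without PBS replicates 1 and 2 and without rescaling, and from 29 without PNA2 replicate 4 to 4159 without PNA2 replicate 1. The cause of these shifts was not tested. At 72 h edgeR called 2837 and DESeq2 3319 genes, against 2849. The deposited 48 h adjustment cannot be undone here, and members below about 10 reads carry counting error too large for a test.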
